A study of Mus musculus with 4 samples.

Results

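The genes of 58 histone-modifying enzymes were examined in ATAC-seq peak lists of CD8+ T cells. They are the protein-coding genes, of 21887 on chromosomes 1 to 19, X and Y, whose mouse symbol is Kdm, Kmt, Setd, Prmt, Hdac or Kat followed by a number. Kdm1a, Hdac1 and Hdac2 were left out because their products work in the LSD1 complexes. The families hold 17 Kdm, 8 Kmt, 8 Setd, 8 Prmt, 9 Hdac and 8 Kat genes. The rule uses names alone and no measured value, and a few products, such as that of Setd3, are known to act on proteins other than histones.

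Histones carry methyl and acetyl groups on their tails that mark active and silent chromatin. Kmt and many Setd enzymes add methyl groups to lysines and Kdm enzymes remove them. Prmt enzymes methylate arginines, Kat enzymes acetylate lysines and Hdac enzymes remove acetyl groups. In T cells these enzymes are known for setting which genes can be switched on after activation and for holding memory and exhaustion programmes in place.

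ATAC-seq uses the Tn5 transposase to tag open DNA, and a peak marks a stretch with more tags than its surroundings. The 4 libraries came from CD8+ lymphocytes of Balb/c mice, described in the series title as tumour-infiltrating, with 1 library per condition and no replicates. The conditions were unstimulated and untreated, unstimulated with phenelzine, stimulated and untreated, and stimulated with phenelzine. Stimulated cells had 2 h of PMA and ionomycin, a pair of drugs that bypasses the antigen receptor. Phenelzine blocks monoamine oxidases and the related demethylase LSD1. Its dose, the tumour and the number of mice are not stated in the labels. Values for the 4 lists are always given in the order unstimulated untreated, unstimulated phenelzine, stimulated untreated, stimulated phenelzine.

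The lists held 6525, 7938, 10414 and 9331 peaks, so the unstimulated untreated list was the shortest. Total reads are unknown. The background coverage that each list implied was 0.3922, 0.4709, 0.4934 and 0.4895 overlapping fragments. Of 9 matched CD8 T cell markers, 2 had a peak at a gene end in any list, Cd3d and Cd5, and no list held a region in the loci of Cd8a and Cd8b1. Gene-end peaks were also seen at 1 of 6 myeloid markers, Spi1, and 1 of 4 CD4 and regulatory T cell markers, Zbtb7b, the latter in all 4 lists. The B cell, NK cell, epithelial and stromal markers had none. Added up gene by gene, the loci of the CD8 T cell markers held 3 to 7 regions per list and those of the myeloid markers 5 to 8. A region in the loci of more than 1 marker, as can occur for Cd3d, Cd3e and Cd3g, counts for each. Distinct regions may therefore be fewer, and these totals do not compare the cell types. The part of other cells in the results below was not tested.

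A gene-end peak is one that overlapped a window of 1 kb to each side of a gene's first or last base. A locus is the gene body plus flanks of 20 kb. Overlapping peaks from different lists were merged into regions, and a region counts as held by each list that contributed to it. Each peak has a fold enrichment, its pileup over the local background, and a −log10 q, the strength of the call within its own list. Both are the authors' values and describe a peak within its list. The percentile of a −log10 q is its place among all peaks of that list.

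The promoters below belong to enzyme genes on which the later results turn. Each is the 250 bases before a start site listed by RefSeq (build GRCm38.p6, which is mm10), 5′ to 3′ on the gene's strand. Capitals mark matches, on either strand, to the searched motifs AP-1 TGANTCA, CRE TGACGTCA, ETS CCGGAAG, NRF1 by name alone, SP and KLF GGGCGG, NFY CCAAT, YY1 by name alone, and E-box CACGTG. The first 6 belong to genes among those with the strongest gene-end peaks. Setd2 had its gene-end peak in the stimulated lists alone and Setd6 in the phenelzine lists alone. Hdac4 and Kdm4c had peaks in every list at a start site inside the annotated gene.
Kdm3a, chr6:71632918-71633167, minus strand: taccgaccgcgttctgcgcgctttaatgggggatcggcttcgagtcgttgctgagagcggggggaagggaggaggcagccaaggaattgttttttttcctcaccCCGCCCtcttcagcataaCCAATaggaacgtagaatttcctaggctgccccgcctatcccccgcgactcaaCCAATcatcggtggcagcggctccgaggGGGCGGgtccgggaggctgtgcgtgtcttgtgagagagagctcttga
Setd3, chr12:108179285-108179534, minus strand: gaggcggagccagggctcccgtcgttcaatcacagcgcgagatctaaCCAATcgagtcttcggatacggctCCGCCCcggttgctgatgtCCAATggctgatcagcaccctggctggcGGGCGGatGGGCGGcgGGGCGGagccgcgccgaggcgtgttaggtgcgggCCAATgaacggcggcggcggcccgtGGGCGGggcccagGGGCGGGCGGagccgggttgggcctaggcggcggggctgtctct
Kmt5c, chr7:4739877-4740126, plus strand: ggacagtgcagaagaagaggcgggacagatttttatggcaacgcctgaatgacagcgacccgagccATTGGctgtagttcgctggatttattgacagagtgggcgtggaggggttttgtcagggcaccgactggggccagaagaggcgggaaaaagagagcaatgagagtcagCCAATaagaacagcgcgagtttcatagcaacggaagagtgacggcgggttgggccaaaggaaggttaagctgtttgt
Kdm4d, chr9:14500483-14500732, minus strand: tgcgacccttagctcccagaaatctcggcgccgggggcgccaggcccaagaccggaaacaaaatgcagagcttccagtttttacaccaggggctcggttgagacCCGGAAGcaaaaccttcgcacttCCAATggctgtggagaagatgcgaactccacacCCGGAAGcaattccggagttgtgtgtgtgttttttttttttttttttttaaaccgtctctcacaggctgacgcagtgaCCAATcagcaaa
Prmt1, chr7:44986421-44986670, minus strand: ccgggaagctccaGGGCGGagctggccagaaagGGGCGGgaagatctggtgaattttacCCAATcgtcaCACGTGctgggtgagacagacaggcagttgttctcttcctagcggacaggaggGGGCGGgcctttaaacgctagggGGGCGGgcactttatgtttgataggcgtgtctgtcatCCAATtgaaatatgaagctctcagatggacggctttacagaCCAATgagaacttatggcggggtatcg
Prmt9, chr8:77549147-77549396, plus strand: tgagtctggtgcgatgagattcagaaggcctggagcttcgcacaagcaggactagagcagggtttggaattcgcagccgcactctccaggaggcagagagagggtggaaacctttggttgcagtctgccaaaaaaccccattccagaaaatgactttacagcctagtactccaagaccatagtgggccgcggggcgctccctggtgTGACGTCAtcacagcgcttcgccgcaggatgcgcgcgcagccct
Setd2, chr9:110532347-110532596, plus strand: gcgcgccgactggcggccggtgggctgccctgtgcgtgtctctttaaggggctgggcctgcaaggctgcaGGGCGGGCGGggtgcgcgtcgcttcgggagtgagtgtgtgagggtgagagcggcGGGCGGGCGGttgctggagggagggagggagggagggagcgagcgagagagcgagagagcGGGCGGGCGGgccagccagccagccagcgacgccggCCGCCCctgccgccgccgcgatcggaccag
Setd6, chr8:95715663-95715912, plus strand: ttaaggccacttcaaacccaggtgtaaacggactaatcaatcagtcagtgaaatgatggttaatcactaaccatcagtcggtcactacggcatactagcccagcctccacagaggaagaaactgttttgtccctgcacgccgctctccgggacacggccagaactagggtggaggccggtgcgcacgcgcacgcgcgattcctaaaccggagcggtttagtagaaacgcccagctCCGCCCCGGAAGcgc
Hdac4, chr1:92180342-92180591, minus strand: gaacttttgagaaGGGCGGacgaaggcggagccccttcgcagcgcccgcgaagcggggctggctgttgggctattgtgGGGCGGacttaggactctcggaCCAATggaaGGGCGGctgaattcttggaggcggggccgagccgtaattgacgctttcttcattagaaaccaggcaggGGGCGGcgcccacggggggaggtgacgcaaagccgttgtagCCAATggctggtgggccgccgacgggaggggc
Kdm4c, chr4:74251629-74251878, plus strand: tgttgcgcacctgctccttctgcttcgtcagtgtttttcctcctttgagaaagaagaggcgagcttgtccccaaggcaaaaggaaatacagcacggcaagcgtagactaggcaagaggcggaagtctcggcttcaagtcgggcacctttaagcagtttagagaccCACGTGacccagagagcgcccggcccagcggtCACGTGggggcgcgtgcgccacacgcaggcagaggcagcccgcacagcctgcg

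These letters show 2 CCAAT boxes and 2 GGGCGG boxes before Kdm3a, and 3 CCAAT boxes with 7 GGGCGG matches, some of them overlapping, before Setd3. Kdm4d has 2 ETS matches and Prmt9 the single CRE match among the enzyme promoters. Kdm4c has 2 E-boxes, and Setd6 has an ETS match that overlaps a GGGCGG match. RefSeq starts were matched for 47 of the 58 genes, giving 66 promoters, against 21263 promoters of all protein-coding genes. Of the 66, CCAAT was in 42.4% (all promoters 35.4%), GGGCGG in 59.1% (42.6%), the ETS letters in 9.09% (8.98%), the AP-1 letters in 9.09% (6.13%) and the E-box in 7.58% (6.63%). Among promoters that overlapped a region of any list, CCAAT was in 59.4% of 32 enzyme promoters and 43.6% of 6626 promoters in all. GGGCGG was in 59.4% and 66.4% of these. Median GC content was 60.4% in enzyme promoters and 55.6% in all. A match describes letters only. The Setd2 window holds 7 GGGCGG matches and no CCAAT. Regions covered all 250 bases of the Kmt5c, Prmt1 and Hdac4 windows and 76 bases each of the Prmt9 and Setd2 windows. Neither NRF1 nor YY1 letters occurred in any of the 66.

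More of these genes had a peak at a gene end than protein-coding genes at large. The number was 26 of 58 in the unstimulated untreated list (44.8%, all genes 22.8%) and 30 in the unstimulated phenelzine list (51.7%, all genes 25.3%). It was 32 in the stimulated untreated list (55.2%, all genes 29.0%) and 32 in the stimulated phenelzine list (55.2%, all genes 27.1%). In all, 36 genes (62.1%, all genes 34.5%) had a gene-end peak in some list and 23 (39.7%, all genes 17.6%) had one in all 4. Of the genes with one in some list, 63.9% had it in all (all genes 51.1%). Of the whole set, 3 genes (5.17%, all genes 5.24%) had a partial pattern that included the unstimulated untreated list. The plot of genes with a gene-end peak sets these shares side by side. No test was made, since there is 1 library per condition and genes are not replicates.

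**Figure D1:**
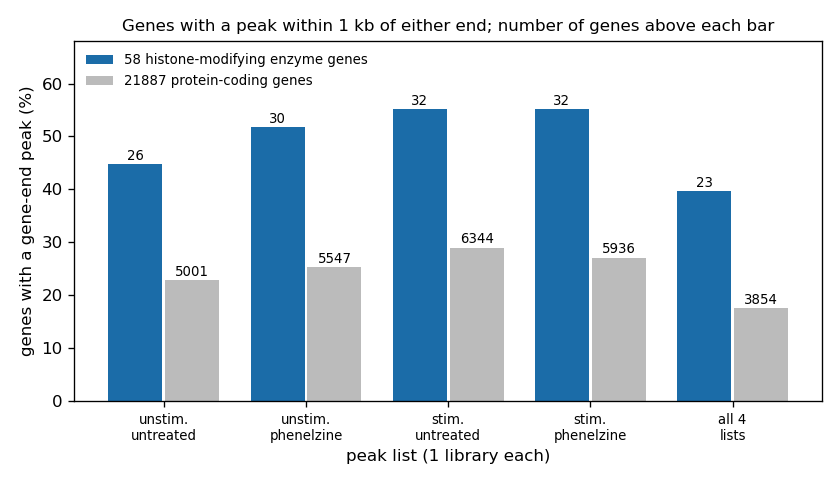
Share of genes (%) with a peak within 1 kb of either gene end in each peak list and in all 4 lists, for the 58 enzyme genes (blue) and for 21887 protein-coding genes (grey), with the number of genes above each bar. The enzyme genes run from 44.8% to 55.2% by list, and all genes from 22.8% to 29.0%.

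The peaks themselves were of ordinary strength. Over genes with a gene-end peak, the median −log10 q of the best one was 3.715, 3.855, 3.70 and 3.38 for the enzyme genes and 3.40, 3.337, 4.05 and 3.501 for all genes. The medians cross, with the enzyme genes higher in the unstimulated lists and lower in the stimulated lists. The fold enrichments imply low pileups, that is, few fragments overlapping at a position. With the library-wide background, a gene-end peak of an enzyme gene stood on a pileup of 4.61 to 12.34 fragments, with medians of 6.52, 7.02, 6.96 and 6.78. A count of 6 has an exact Poisson 95% interval of 2.2 to 13.06 and a count of 12 one of 6.2 to 20.96, for counting error only. A pileup is a depth and not the number of fragments in a region, so these intervals are a rough guide. The intervals of 6 and 12 overlap, which is not a comparison of peaks.

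Among the methyl erasers, 8 of 17 Kdm genes had a gene-end peak in some list (all genes 34.5%). Each of the 8 had it in all 4 lists (100%, all genes 51.1%). The families are small and were not compared by a test. Kdm3a, which encodes a demethylase of H3K9, had −log10 q of 8.16, 6.85, 7.11 and 4.48, with folds of 7.82, 7.05, 6.95 and 5.83. It stood between percentiles 79.0 and 96.6 of the lists. These values combine 2 adjacent regions, chr6:71632913-71633161 over the start and chr6:71633436-71633605 upstream of it. The upstream region was the stronger in the unstimulated lists and the one over the start in the stimulated lists.

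Kdm5c, an X-linked gene for a demethylase of H3K4, had −log10 q of 6.76, 6.88, 9.54 and 4.40 (folds 7.22, 7.15, 8.23 and 5.86). Its region, chrX:152232766-152233005, lay 193 bp outside the gene. The stimulated untreated list had the strongest call and the stimulated phenelzine list the weakest. Its relative Kdm5a had 2.26, 4.29, 6.15 and 1.66 at a region that is also at the end of Ccdc77. For the Y-linked relative Kdm5d no list held a region, but the whole of chromosome Y had only 6, 9, 9 and 9 peaks. The nearest region on Y lay 89794373 bp from Kdm5d, so the absence is not particular to this gene. For Kdm5b the stimulated untreated list alone held a region (2.97), 3016 bp from the gene. Kdm2b and Kdm3b also had a single region in 1 list, at 2.07 in the stimulated untreated and 1.52 in the unstimulated phenelzine list.

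The Kdm4 genes encode demethylases of H3K9. Kdm4b had −log10 q of 3.83, 6.45, 6.65 and 5.01, and Kdm4a 3.74, 4.15, 3.82 and 4.78, close to level over the lists. Kdm4d had 4.58, 5.78, 5.02 and 2.58 at chr9:14500428-14500674, a region shared with the end of the neighbouring splicing gene Cwc15, so the peak cannot be given to either gene. Kdm8, a JmjC-domain gene, had 9.72, 2.80, 4.33 and 3.48, the highest value of any enzyme gene in the unstimulated untreated list (percentile 98.1 there and 52.4 to 71.4 in the others). Kdm1b, which encodes LSD2, the flavin-dependent relative of LSD1, had 2.11, 4.49, 3.50 and 4.28 at a region shared with the end of Tpmt. The left-out LSD1 gene Kdm1a had a gene-end peak in the phenelzine lists alone, with −log10 q of 1.86 in unstimulated and 4.55 in stimulated cells.

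Of the 8 lysine methyltransferase genes of the Kmt family, 7 had a gene-end peak in some list (all genes 34.5%). Of the 7, 3 had one in all 4 (42.9%, all genes 51.1%). Kmt5c, whose product methylates H4K20, had −log10 q of 3.69, 3.43, 6.83 and 6.60 (folds 5.37, 5.14, 6.57 and 6.73), at chr7:4739664-4740219. It stood near percentile 65 in the unstimulated lists (65.8 and 65.4) and higher in the stimulated lists (90.0 and 92.9). Kmt5a, whose product adds the first methyl group to H4K20, had 2.65, 2.53, 3.09 and 6.08. Kmt2e, a relative of the MLL genes, had 6.17, 3.63, 3.02 and 2.43, strongest in the unstimulated untreated list.

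Kmt2a, Kmt2c and Kmt2d encode MLL-type methyltransferases of H3K4, which act at promoters and enhancers. Kmt2a had −log10 q of 2.30, 2.90 and 3.28 in the last 3 lists and no gene-end peak in the unstimulated untreated list. Kmt2c had 5.62, 2.54 and 5.84 in the same 3 lists, at chr5:25499612-25499763. Kmt2d had 4.92 in the unstimulated untreated list, none in the unstimulated phenelzine list, and 2.72 and 1.76 in the stimulated lists. That region lies at the end opposite its start and is also at an end of Prkag1, a subunit gene of the AMP-activated kinase. Kmt2b had a gene-end peak of 1.83 in the stimulated phenelzine list alone, shared with Zbtb32.

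Of the 8 Setd genes, 4 had a gene-end peak in all lists, 2 in some and 2 in none (all genes 34.5% in some list). Of those with one in some list, 66.7% had it in all (all genes 51.1%). Setd5 had the strongest gene-end peak of all 58 genes, with −log10 q of 3.40, 7.76, 12.60 and 8.68 and folds of 5.20, 7.05, 8.93 and 7.46. Its region, chr6:113076518-113077396, covered the end of the gene with the lower coordinate. It stood at percentile 60.4 in the unstimulated untreated list and at 96.3, 99.0 and 97.4 in the others. In implied pileup the values were 6.25, 9.37, 12.34 and 10.11, a depth and not a count of fragments in the region. As a rough guide only, the counting intervals of 6 and 12 fragments overlap.

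Setd3, which encodes the histidine methyltransferase of actin, had −log10 q of 4.89, 5.24, 8.91 and 5.53 at a region shared with the cyclin gene Ccnk. Setd1a, an H3K4 methyltransferase gene, had 3.42, 5.64, 1.71 and 3.50, with its weakest call in the stimulated untreated list. Setd4 had 2.04, 3.27, 2.86 and 1.57. Setd2, the gene of the H3K36 trimethylating enzyme, was the 1 enzyme gene with a gene-end peak in both stimulated lists and neither unstimulated list (1.72%, all genes 1.65%). Its values were 1.80 and 1.64, near the lowest −log10 q of 1.02 and 1.01 that those lists report. Setd6, whose product methylates the NF-kB subunit RelA, was the 1 gene with the peak in both phenelzine lists and neither untreated list (1.72%, all genes 0.722%). It had 4.48 in unstimulated and 2.92 in stimulated cells, at chr8:95715822-95715950, which is also at an end of Ndrg4.

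Arginine methyltransferase genes had gene-end peaks in 7 of 8 cases (all genes 34.5%), and 57.1% of the 7 had one in every list (all genes 51.1%). Prmt8, known from neurons, had no region in its locus. Prmt1, the gene of the main asymmetric arginine methyltransferase, had −log10 q of 5.17, 2.56, 4.65 and 4.43. Prmt5, which makes symmetric dimethylarginine, had 3.39, 4.08, 8.38 and 4.16, strongest in the stimulated untreated list (percentile 94.8, against 60.2 to 75.5 in the others). Prmt9, which acts on a splicing factor, had 2.80, 6.96, 3.74 and 4.82, strongest in the unstimulated phenelzine list. Prmt3 had 2.72, 1.86, 2.97 and 2.54. Prmt2 had 3.53, 3.66 and 3.17 and lacked the peak in the unstimulated untreated list. Prmt6 had it in the unstimulated phenelzine and stimulated untreated lists (2.85 and 2.97), a pattern of 1.07% of all genes. Prmt7 had it in the unstimulated untreated and stimulated phenelzine lists (2.10 and 3.24), a pattern of 0.379% of all genes, at a region shared with the end of Slc7a6os.

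Deacetylase genes had gene-end peaks in 4 of 9 cases (all genes 34.5%). Of the 4, 2 had one in every list (all genes 51.1%). Hdac10, a class IIb gene, had −log10 q of 5.65, 4.13, 5.75 and 3.71 at a region shared with Tubgcp6. Hdac6, which encodes the tubulin deacetylase, had 3.84, 1.86, 2.84 and 2.65. The class IIa gene Hdac5 had none, 1.17, 4.07 and 2.45, and Hdac3, the catalytic subunit of the NCoR complexes, had 1.60 in the unstimulated phenelzine list alone, at a region shared with Rell2. Hdac4, Hdac7, Hdac8, Hdac9 and Hdac11 had none, and the locus of Hdac7 held 1 region, at 2.61 in the unstimulated phenelzine list. Of the left-out class I genes, Hdac1 had 2.69, none, 4.72 and 7.96 and Hdac2 had 2.23 in the unstimulated phenelzine list alone.

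Acetyltransferase genes likewise had gene-end peaks in 4 of 8 cases (all genes 34.5%). Of the 4, 2 had one in every list (all genes 51.1%). Kat7, the gene of HBO1, had −log10 q of 5.05, 3.48, 5.97 and 2.81, with 2 adjacent regions that every list held. Kat14, a subunit gene of the ATAC acetyltransferase complex, had 2.42, 1.96, 2.80 and 2.62 at a region shared with Pet117. Kat6a, the gene of MOZ, was the 1 enzyme gene with the peak in both untreated lists and neither phenelzine list (1.72%, all genes 0.539%), with 3.11 and 1.64. Kat2a, the gene of GCN5, had 1.48 in the stimulated untreated list alone. Kat2b, Kat5, Kat6b and Kat8 had no gene-end peak, and the locus of Kat8, the gene of MOF, had a flank region in every list (3.70, 2.03, 2.15 and 2.19).

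**Figure D2:**
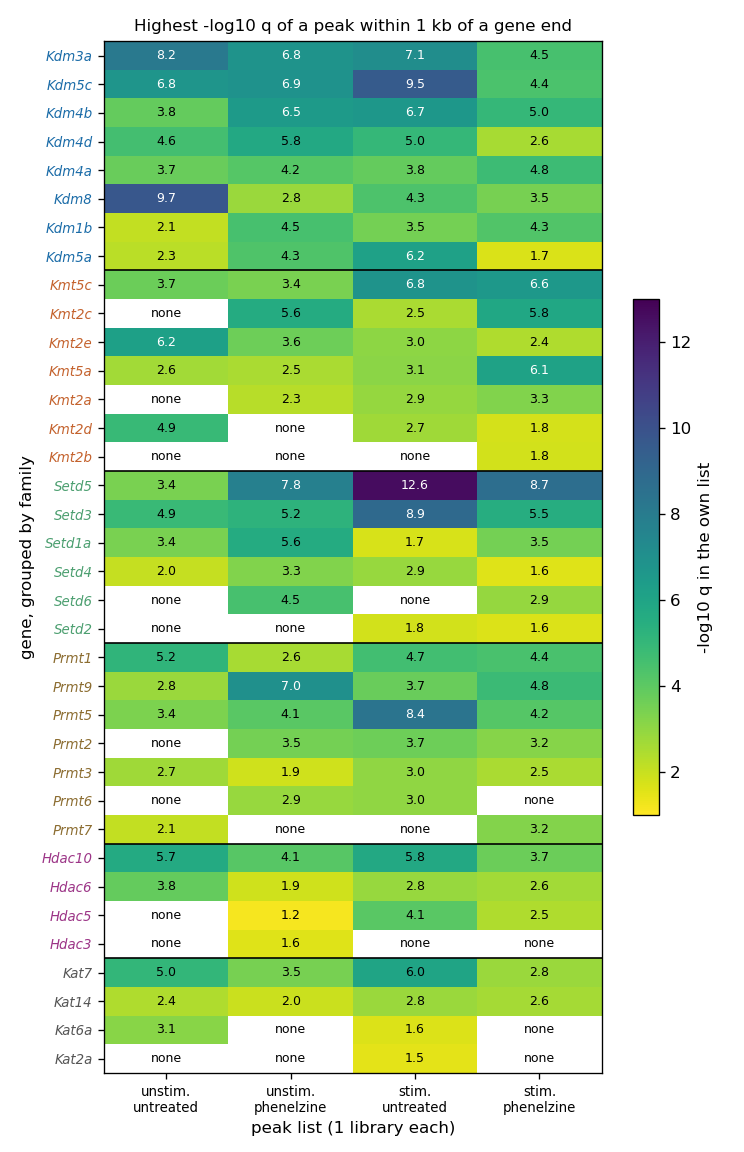
Highest −log10 q of a gene-end peak for the 36 genes that had one (rows, grouped and coloured by family, sorted by median) in each list (columns, 1 library each). White cells marked "none" have no such peak. Setd5 reaches 12.6 in the stimulated untreated list, and the 8 Kdm genes have no white cell.

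The 13 gene-end regions that some list lacked had a highest −log10 q between 1.48 and 5.84, with a median of 3.24. Of these, 4 stayed under 2 in every list that held them, those of Setd2, Hdac3, Kat2a and Kmt2b. The 25 held by all 4 lists had a highest value between 2.8 and 12.6 with a median of 6.08, taken over more calls per region. Median widths were 173 and 372 bp. Of the 13 genes with a peak in some but not all lists (22.4%, all genes 16.9%), 10 lacked it in the unstimulated untreated list (76.9%). Over all genes with such a partial pattern the share was 68.9%. Kmt2a, Kmt2c, Prmt2 and Hdac5 lacked it in that list alone (6.90%, all genes 2.81%). Among genes with a gene-end peak in some list, these were 4 of 36 enzyme genes and 614 of 7546 in all. Kmt2d lacked it in the unstimulated phenelzine list alone (1.72%, all genes 1.75%). No enzyme gene lacked it in the stimulated untreated list alone (all genes 0.557%) or in the stimulated phenelzine list alone (all genes 1.06%). Hdac3 had it in the unstimulated phenelzine list alone (1.72%, all genes 1.22%), Kat2a in the stimulated untreated list alone (1.72%, all genes 2.51%) and Kmt2b in the stimulated phenelzine list alone (1.72%, all genes 1.65%). None had it in the unstimulated untreated list alone (all genes 0.658%), and none in both unstimulated lists and neither stimulated list (all genes 0.302%). That list is the shortest and has the lowest implied background, and the part of its depth in these absences was not tested.

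Where the gene's strand was known, the gene-end peak lay at the 5′ end of the gene in all but 1 case. Of 47 genes with listed starts, 29 had a gene-end region, at the 5′ end of 28 and at the opposite end of 1, Kmt2d. A further 6 genes had no gene-end region but one at a listed start inside the annotated gene, namely Hdac4, Kat5, Kat6b, Kdm4c, Kdm6a and Kmt5b. Every list held the region in 5 of them, all but Kat5. Hdac4 had −log10 q of 3.35, 3.51, 4.65 and 3.77 there, at chr1:92180262-92180967. Kat6b, the gene of MORF, had 5.29, 4.38, 9.28 and 6.63. Kdm4c had 7.42, 3.82, 3.80 and 2.46, and Kdm6a, the X-linked gene of the H3K27 demethylase UTX, had 2.46, 2.86, 3.57 and 4.80. Kmt5b, the relative of Kmt5c, had 2.32, 3.70, 4.85 and 4.01. Kat5, the gene of Tip60, had 4.33 in the stimulated phenelzine list alone.

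The edge of the 1 kb window fell close to several of these. The outermost region inside it was that of Kmt2c, 757 bp from the gene end. Just outside were Kdm7a at 1191 bp, Kat6b at 1216, Kdm2a at 1256, Kdm6b at 1272, Kmt5b at 1412, Kat5 at 1460 and Kdm6a at 1532. For Kdm6b, the gene of the inducible H3K27 demethylase JMJD3, that region had −log10 q of 7.30, 3.10, 6.37 and 7.98. With a window of 2 kb the genes with a gene-end peak numbered 32, 36, 38 and 40. The shares over all genes were not computed for that window.

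**Figure D3:**
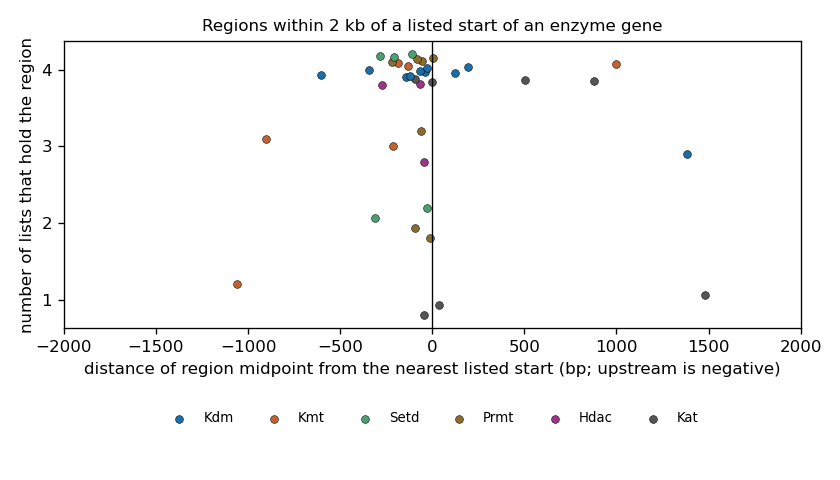
Distance (bp) of the midpoint of each region from the nearest listed start of an enzyme gene, for the 38 regions within 2 kb (upstream is negative), against the number of lists that hold the region. Small vertical offsets separate points, colours mark families, and 30 of the 38 midpoints lie within 350 bp of a start.

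The 58 loci held 103 distinct regions, none counted for more than 1 gene. Of these, 38 lay at the gene's own end, 18 at an end of another protein-coding gene, 29 inside the body and 18 in the flanks. Regions at gene ends were shared between lists more often than the others. All 4 lists held 65.8% of the regions at own ends, 22.2% of those at ends of other genes, 20.7% of those in bodies and 11.1% of those in flanks. In the whole series all lists held 46.4% of regions at gene ends and 11.1% of the others. A single list held 17 of the 29 body regions and 10 of the 18 flank regions. The strongest region in a flank was near Kat2b, 16538 bp from the gene, with −log10 q of 7.43, 11.65, 9.91 and 4.98.

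The regions per locus were equal in all 4 lists, with at least 1 region, at 17 genes (29.3%, all genes 15.0%). No list held a region in the loci of Hdac8, Hdac11, Kdm5d, Prmt8, Setd1b and Setd7. These were 6 of 58 genes (10.3%, all genes 42.6%). The median body was 43.6 kb for the enzyme genes and 17.2 kb for all genes, and the part of gene length in these shares was not tested. The mean number of regions per locus was 0.931, 1.069, 1.293 and 1.207 for the enzyme genes and 0.549, 0.641, 0.801 and 0.723 for all genes.

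In untreated cells, the stimulated list held more regions than the unstimulated list at 22 of 58 genes (37.9%, all genes 23.3%) and fewer at 5 (8.62%, all genes 4.47%). The median difference was 0 for the enzyme genes and for all genes. Among genes with a region in any list the shares were 42.3% with more (all genes 40.6%) and 9.62% with fewer (all genes 7.79%), so the enzyme genes stood near the background. The difference was at least 2 regions up at 4 genes (6.90%, all genes 5.06%) and at least 2 down at 1 (1.72%, all genes 0.174%). Gene-end peaks were in the stimulated list alone at 7 genes (12.1%, all genes 8.03%), Kmt2a, Kmt2c, Setd2, Prmt2, Prmt6, Hdac5 and Kat2a. They were in the unstimulated list alone at 1, Prmt7 (1.72%, all genes 1.90%). Among genes with a gene-end peak in some list, the stimulated list alone had it at 7 of 36 enzyme genes and 1758 of 7546 in all. The unstimulated list alone had it at 1 of 36 and 415 of 7546. By family, more regions were held at 6 Kmt, 5 Kdm, 4 Hdac, 4 Kat, 2 Prmt and 1 Setd genes. With lists of equal size, 11 genes had more (19.0%, all genes 11.9%) and 9 had fewer (15.5%, all genes 10.5%).

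Hdac9, a class IIa deacetylase gene, had 0, 2, 3 and 3 regions in its locus. None lay at a gene end, and their −log10 q was between 1.61 and 2.62. Hdac4 had 2, 1, 4 and 1 regions. Besides the region at its internal start, 3 regions in its body were in the stimulated untreated list alone, with 1.99, 1.43 and 1.49, and 1 in the unstimulated untreated list alone, with 1.34. Hdac5 had 2, 2, 4 and 3, of which the gene-end region was the strongest in the stimulated untreated list.

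Kmt5a had 1, 1, 3 and 3 regions. Besides its gene-end region, both stimulated lists held one at the end of Sbno1 (1.58 and 2.02) and one at the end of Rilpl2 (2.45 and 4.48), and neither unstimulated list did. Setd5 went the other way, with 3, 1, 1 and 1. The regions in its locus that the unstimulated untreated list alone held had 1.82 and 3.21, the latter at the end of Lhfpl4. The map of loci shows these regions by list.

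Stimulation of phenelzine-treated cells came with more regions at 12 of 58 genes (20.7%, all genes 15.8%) and fewer at 7 (12.1%, all genes 9.45%). Among genes with a region in any list these were 23.1% (all genes 27.5%) and 13.5% (all genes 16.4%). The difference was at least 2 up at 3 genes (5.17%, all genes 2.50%) and at least 2 down at none (all genes 0.941%). Gene-end peaks were in the stimulated list alone at 4 genes (6.90%, all genes 5.43%), Kmt2b, Kmt2d, Setd2 and Prmt7, and in the unstimulated list alone at 2 (3.45%, all genes 3.65%), Prmt6 and Hdac3. Kmt2d had 1, 1, 2 and 3 regions. The regions behind its difference with phenelzine were the gene-end region, at 1.76, and a body region that the stimulated phenelzine list alone held, at 1.66. Both stimulated lists had its region at the ends of Rhebl1 and Dhh (7.78 and 4.03). The unstimulated phenelzine list also held that region, at 1.76, so it adds nothing to this difference. Kdm2a, which encodes a CpG island-binding demethylase of H3K36, had 0, 1, 1 and 3. Of its regions, 2 inside the body were in the stimulated phenelzine list alone, with 2.04 and 2.09. Kdm7a, which encodes a demethylase of H3K9 and H3K27, had 1, 1, 0 and 2. With lists of equal size, 7 genes had more regions (12.1%, all genes 10.8%) and 5 had fewer (8.62%, all genes 10.6%). Kat2b, the gene of the acetyltransferase PCAF, had 2, 2, 1 and 1. A body region of this gene was held by both unstimulated lists (3.18 and 3.44) and by neither stimulated list. Kmt5a, Kmt2d, Kdm2a, Hdac3, Hdac5 and Hdac9 had more regions in both stimulation contrasts, and Kat2b and Prmt3 had fewer in both. The share of all genes with the same sign in both contrasts was not computed, so this list is a description only.

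**Figure D4:**
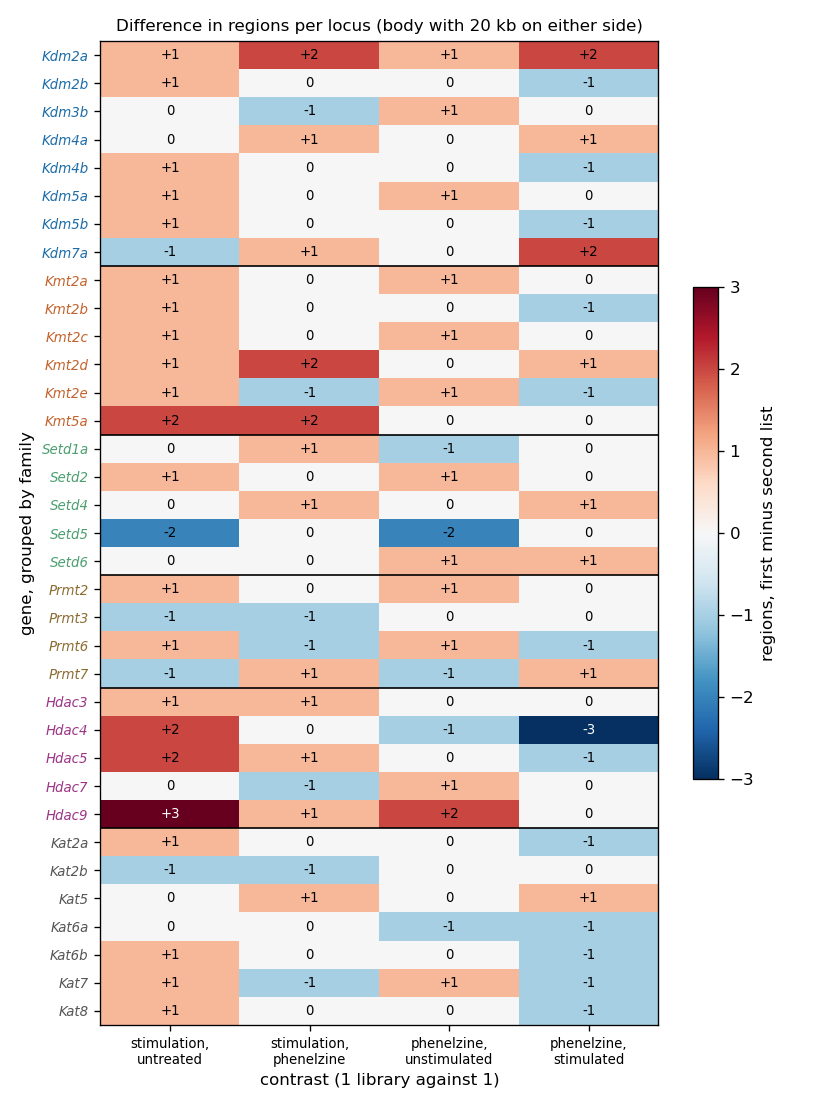
Difference in the number of regions per locus for the genes with a difference in any contrast (rows, grouped and coloured by family), with 1 library against 1 in each column. Red cells have more regions in the stimulated or phenelzine list and blue cells fewer. The extremes are Hdac9 with +3 and Hdac4 with −3.

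Phenelzine in unstimulated cells came with more regions at 13 of 58 genes (22.4%, all genes 15.5%) and fewer at 5 (8.62%, all genes 8.44%). Among genes with a region in any list these were 25.0% (all genes 27.0%) and 9.62% (all genes 14.7%). The difference was at least 2 up at Hdac9 alone (1.72%, all genes 2.39%) and at least 2 down at Setd5 alone (1.72%, all genes 0.608%). Gene-end peaks were in the phenelzine list and not in the untreated list at 7 genes (12.1%, all genes 5.82%): Kmt2a, Kmt2c, Setd6, Prmt2, Prmt6, Hdac3 and Hdac5. The reverse held at 3 (5.17%, all genes 3.32%), Kmt2d, Prmt7 and Kat6a. Enzyme genes had a gene-end peak in some list more often than all genes. Among genes with one in some list, the phenelzine list alone had it at 7 of 36 enzyme genes and 1273 of 7546 in all. The untreated list alone had it at 3 of 36 and 727 of 7546. With lists of equal size, 10 genes had more regions (17.2%, all genes 11.1%) and 9 had fewer (15.5%, all genes 11.0%). The lead of genes with more over genes with fewer was thus smaller than the 13 against 5 above. The strongest gene-end peak of the 7 was that of Kmt2c (5.62) and the weakest that of Hdac5 (1.17).

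Phenelzine in stimulated cells came with fewer regions at 13 of 58 genes (22.4%, all genes 16.1%) and more at 8 (13.8%, all genes 10.2%). By family, fewer regions were held at 5 Kat, 3 Kdm, 2 Kmt, 2 Hdac and 1 Prmt genes. The Kat genes were Kat2a, Kat6a, Kat6b, Kat7 and Kat8, each with 1 region fewer. Their regions missing with phenelzine had −log10 q of 1.48, 1.64, 2.44, 1.30 and 1.11 in the stimulated untreated list. Among genes with a region in any list the shares were 25.0% with fewer (all genes 28.0%) and 15.4% with more (all genes 17.8%). Kdm2a (+2) and Kdm7a (+2) were the genes with at least 2 more (3.45%, all genes 1.13%), and Hdac4 with 3 fewer was the one with at least 2 fewer (1.72%, all genes 2.69%). Gene-end peaks differed in both directions alike, with 3 genes in the phenelzine list alone (5.17%, all genes 3.31%) and 3 in the untreated list alone (5.17%, all genes 5.18%). With lists of equal size, 7 genes had fewer regions (12.1%, all genes 11.5%) and 9 had more (15.5%, all genes 10.7%), so the direction of the balance turned. The phenelzine contrasts each share a library with a stimulation contrast, so their counts are not independent of it.

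**Figure D5:**
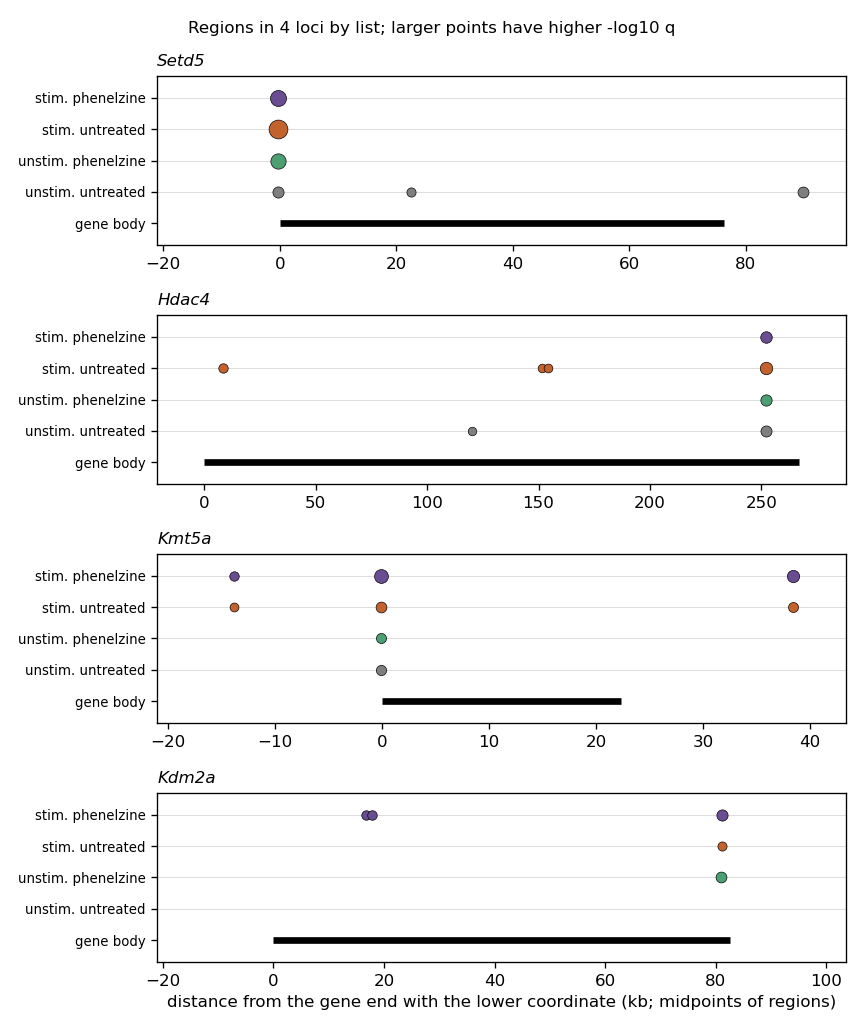
Midpoints of regions in the loci of Setd5, Hdac4, Kmt5a and Kdm2a, in kb from the gene end with the lower coordinate, with 1 row per list and the gene body as a black bar. Point area grows with −log10 q. The region at the Setd5 end and that at the internal start of Hdac4 are in every row, while Kmt5a has 2 further regions in the stimulated rows alone.

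Between libraries, the enzyme loci overlapped somewhat more than the series as a whole. Of distinct regions in either list, both lists held 51.8% for stimulation in untreated cells (all regions 45.8%) and 57.1% for stimulation with phenelzine (48.2%). For phenelzine it was 56.8% in unstimulated cells (49.3%) and 64.8% in stimulated cells (49.3%). The higher share of gene-end regions among the enzyme regions moves with this, and its part was not tested.

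Other genes of histone modification gave a comparison outside the symbol rule. Of 35 further writers and erasers, 26 had a gene-end peak in some list (74.3%, all genes 34.5%) and 7 in all 4 (20%, all genes 17.6%). Of 25 subunits and partners of such complexes, 22 (88.0%) and 8 (32.0%) did. Among genes with one in some list, 7 of the 26 and 8 of the 22 had it in all 4. These are lower shares than the 51.1% of all genes and the 63.9% of the 58 enzyme genes. The examples were picked with their values in view. Among the writers and erasers, Ehmt1, a methyltransferase gene for H3K9, had −log10 q of 11.34, 5.32, 6.77 and 6.99. Suv39h2, of the same activity, had 9.17, 7.02, 4.7 and 5.34. Ezh2, the catalytic subunit gene of Polycomb complex PRC2, had none, 2.2, 4.68 and none, and its partner Eed had 1.42, 4.46, 6.30 and 4.09. Paxip1, a subunit gene of the Kmt2c and Kmt2d complexes, had 6.24, 5.72, 10.84 and 6.51. The histone acetyltransferase genes Crebbp and Ep300 differed in that Crebbp had no gene-end peak and Ep300 had one in the stimulated untreated list alone (3.95). With stimulation in untreated cells, 15 of the 35 had more regions in the locus (42.9%, all genes 23.3%) and 3 fewer (8.57%, all genes 4.47%). Of the 25, 15 had more (60%) and 1 had fewer (4.00%). Genes with no region in any list cannot differ, and these were 2 of the 35, none of the 25 and 42.6% of all genes. Among all genes with a region in any list, 40.6% had more and 7.79% had fewer, so the 35 stood near the background.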

How the data were processed

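The 4 broad peak lists are the deposited result, 1 per library, on mm10. Per the submitters' processing notes, the tools include MACS2, HOMER, Picard, Bowtie2 2.2.5 and Trimmomatic 0.33. Their settings are not stated there. The authors' columns hold a score, a fold enrichment (ratio) and p-values and q-values on the −log10 scale. The score was not used further. Regions were merged at an overlap of 1 bp or more with Python 3.11.15 and pandas 2.3.3. Genes came from the RefSeq table of the same build, which has no strand. Chromosome Y was kept because Kdm5d lies there. Implied background was computed from the commonest combination of fold and −log10 p in a list, taking fold as (pileup + 1) over (background + 1). Tested on simulated data, merging and counting returned 100% of 500 planted patterns. Genes named in full were the 10 with the highest median −log10 q at a gene end, those differing by 2 or more regions, those with a peak in one state alone, and those with no region, and the other members were given by family. The members and lists were chosen with earlier results of these data known. With 1 library per condition no test was made.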

Additional observations from a re-analysis of the deposited data

Results flagged for a closer look

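For 5 of the 58 enzyme genes (8.62%, all genes 5.41%) the difference in regions per locus between stimulated and unstimulated cells had opposite signs with and without phenelzine. Genes with no region in any list cannot differ, and these were 10.3% of the enzyme genes and 42.6% of all genes. Among genes with a region in any list, the signs were opposite at 5 of 52 enzyme genes and 1185 of 12573 genes in all, so the enzyme genes stood near the background. The difference between the arms was not tested, and each sign rests on 1 region in 1 library. Kat7, Kmt2e and Prmt6 had 1 region more after stimulation in untreated cells and 1 fewer in phenelzine-treated cells, a difference between arms of −2. Kdm7a and Prmt7 had 1 fewer and 1 more, a difference of 2. The region behind Kat7 had −log10 q of 1.17 and 1.30 in the lists that held it, and that behind Kmt2e 1.74 and 4.11. For Prmt6 and Prmt7 the region was the one at the gene end, which for Prmt7 is also an end of Slc7a6os.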

How the results depend on the processing

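Of 60 recomputed counts, 40 stayed within 1.5 times the reported one and 20 did not. With −log10 q of at least 3, genes with a gene-end peak numbered 20 in the stimulated untreated and 19 in the stimulated phenelzine list. The same setting gave 11 genes with more regions (19.0%, all genes 17.2%) and 6 with fewer (10.3%, all genes 4.26%) for stimulation in untreated cells. For phenelzine in unstimulated cells it gave 10 with more (17.2%, all genes 10.2%) and 8 with fewer (13.8%, all genes 8.28%). In stimulated cells phenelzine gave 8 with more (13.8%, all genes 6.81%) and 8 with fewer (13.8%, all genes 13.8%). With lists of equal size, stimulation in untreated cells gave 11 with more and 9 with fewer, and stimulation with phenelzine 7 and 5. Phenelzine then gave 10 with more and 9 with fewer in unstimulated cells, against 13 and 5 reported, and 9 and 7 in stimulated cells, against 8 and 13 reported. With flanks of 50 kb, the genes with more and fewer regions numbered 18 and 11 for stimulation with phenelzine, 19 and 9 for phenelzine in unstimulated cells, and 11 and 21 in stimulated cells. With gene bodies alone, stimulation gave 9 with more and 3 with fewer in untreated cells, and 5 and 4 with phenelzine. For phenelzine, bodies gave 8 with more and 2 with fewer in unstimulated cells, and 7 and 6 in stimulated cells. Shares over all genes were not computed for the 50 kb flanks, the bodies alone or the gene-end counts at the stricter −log10 q. Those counts therefore cannot be set against the background. The shares for lists of equal size and for regions at the stricter −log10 q include genes with no region, which cannot differ. In the reported setting such genes were 10.3% of the enzyme genes and 42.6% of all genes. Shares among genes with a region were not computed for the changed settings. Fewer peaks or less sequence enter most of these settings by construction. No paired analysis was possible because each condition has 1 library, so no replicate numbers are shared. The fold enrichments of the enzyme genes' gene-end peaks imply pileups of 4.61 to 12.34 fragments, so counting intervals are wide.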
